A study of Mus musculus with 29 samples.

Results

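Transforming growth factor β (TGF-β) signals from the vessel matrix to the nucleus, and 10 genes of this pathway were described in the mouse aortic arch: the ligands Tgfb1, Tgfb2 and Tgfb3, the receptors Tgfbr1, Tgfbr2 and Tgfbr3, the receptor-regulated SMADs Smad2 and Smad3, and the inhibitory SMADs Smad6 and Smad7. They were taken from a list of pathway genes and matched by symbol to the Ensembl identifiers of the count table, where they make up 10 of 56748 genes, and all 10 were among the 12353 genes that passed the filter on low counts. RNA of the aortic arch was sequenced from 28 mice of a F1 C57BL6J/FVB hybrid background in 6 groups. WT mice and Ercc1Δ/− littermates were fed ad libitum (AL) and sampled at 6 weeks (5 and 5 mice) or at 22 weeks (4 and 4), or were sampled at 22 weeks after 30% dietary restriction (DR) that was introduced in steps after 6 weeks of age (5 and 5). Ercc1Δ/− mice carry 1 knockout allele and 1 truncated allele of the DNA repair gene Ercc1 in the germline, so that all tissues lack full repair and not the vessel wall alone. Each sample was the arch of a separate mouse, and both sexes were present in every group. All mice of every group were housed singly and ate the same synthetic pellets. Ercc1 itself gave between 28.2 and 78.7 normalized counts in the 14 Ercc1Δ/− samples and between 52.2 and 136 in the 14 WT samples. At 22 weeks the genotypes did not overlap on either diet, while at 6 weeks the lowest WT sample lay below the highest Ercc1Δ/− sample, with means of 41.8 in Ercc1Δ/− and 101.5 in WT.

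TGF-β is secreted as a latent complex, stored in the extracellular matrix on latent TGF-β binding proteins and fibrillin, and released by proteases, thrombospondin or integrins. The freed ligand binds the type II receptor (Tgfbr2), which activates the type I receptor (Tgfbr1), while betaglycan (Tgfbr3) presents ligand, above all TGF-β2, to the pair. The type I receptor phosphorylates SMAD2 and SMAD3, which enter the nucleus with SMAD4 and turn on genes for collagens, contractile proteins and the inhibitory SMAD7, which in turn leads to degradation of the receptor. SMAD6 chiefly restrains the related BMP branch. In the aorta mutations in the ligand, receptor and SMAD3 genes cause familial aneurysm, and the pathway is central to how smooth muscle cells keep up their matrix.

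Of the 10 genes, 6 had a start in the RefSeq promoter table. The bases upstream of 3 starts are shown because these genes differ in the comparisons: Tgfb2 and Smad6 were lower in Ercc1Δ/− aortas on DR and Tgfb1 was not. Each is read 5′ to 3′ on the gene's own strand, from the RefSeq window of 250 bases before the start (table of GRCm38.p6), limited to a stretch outside annotated untranslated exons, and placed on GRCm39 by exact match. Tgfb1 lies on the plus strand (chr7:25386177-25386389), and Tgfb2 (chr1:186438295-186438436) and Smad6 (chr9:63929412-63929538) lie on the minus strand. The Tgfb1 and Tgfb2 stretches lie outside the annotated span of their genes, while the Smad6 stretch lies inside the Smad6 span, downstream of its annotated 5′ end. Capitals mark matches, on either strand, to the SMAD box CAGAC, the E-box CACGTG, the TATA box TATAAA or the GC box GGGCGG.
Tgfb1: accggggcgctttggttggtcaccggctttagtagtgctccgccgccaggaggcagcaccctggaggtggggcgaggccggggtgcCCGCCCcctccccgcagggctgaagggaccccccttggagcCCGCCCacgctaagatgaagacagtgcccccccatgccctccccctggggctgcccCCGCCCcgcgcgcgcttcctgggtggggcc
Tgfb2: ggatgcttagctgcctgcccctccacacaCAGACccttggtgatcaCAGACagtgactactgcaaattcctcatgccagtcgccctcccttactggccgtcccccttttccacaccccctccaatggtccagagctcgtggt
Smad6: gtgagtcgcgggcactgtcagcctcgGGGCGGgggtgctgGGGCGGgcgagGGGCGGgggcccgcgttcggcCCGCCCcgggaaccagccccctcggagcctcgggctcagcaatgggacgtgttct

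Within the full windows of 250 bases, Tgfb2 held 2 SMAD boxes, 1 E-box and 1 TATA box and no GC box, while Tgfb1 held 5 GC boxes and Smad6 held 4, with none of the other motifs. The Tgfb2 E-box at -51 and TATA box at -31 lay inside the annotated gene span, past the stretch shown. So did the Tgfb1 GC boxes at -36 and -16. No match of 1 motif overlapped a match of another. Among all 32851 such windows a share of 42.2% held a SMAD box, 6.02% an E-box, 12.4% a TATA box and 32.7% a GC box. The windows were 75.2% GC in Tgfb1, 66.8% in Smad6 and 53.6% in Tgfb2, against a median of 52.4% over all windows. These matches describe letters only, and no binding was measured.

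On GRCm39 the genes called in at least 1 comparison span, with their Ensembl identifiers, Tgfb2 (ENSMUSG00000039239) at chr1:186354985-186438294, Tgfb3 (ENSMUSG00000021253) at chr12:86102756-86126301, Tgfbr2 (ENSMUSG00000032440) at chr9:115913361-116004800, Tgfbr3 (ENSMUSG00000029287) at chr5:107249402-107437623, Smad6 (ENSMUSG00000036867) at chr9:63860341-63929793 and Smad7 (ENSMUSG00000025880) at chr18:75500374-75529006. Compared per kilobase of exon, Tgfb3, the isoform needed for palate closure, was the most abundant of the 10 transcripts. Its median over the 28 samples was 139.5 normalized counts per kb, ahead of Tgfbr2 with 94.6, Tgfb2 with 68.0 and Tgfbr1 with 66.8. Tgfbr3 followed with 48.5, Tgfb1 with 43.1 and Smad7 with 41.0 normalized counts per kb. The lowest levels were those of Smad6 with 34.1, Smad3 with 24.1 and Smad2 with 11.8 normalized counts per kb. The place of Tgfb1 in this order depended on the length used, since its longest coding transcript is much shorter than the union of its exons and gave 98.8 per kb, the second highest of the 10. In reads, the members were measured with 19 to 2435 counts per sample. In the order of the 6 group means, the ranges of neighbouring groups overlapped for all 10 genes.

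Pairs of groups and interactions were tested across all 12353 genes by edgeR's quasi-likelihood F test with sex in the model. A gene was called a differentially expressed gene (DEG) when its p after Benjamini-Hochberg adjustment did not exceed 0.05 and its fold change reached 1.2. Interactions were called on the adjusted p alone, with no limit on the fold change. Between the genotypes at 22 weeks on AL feeding, 2 of the 10 members were DEGs, both lower in Ercc1Δ/−, where 12.0% of all genes tested were called. On DR the genotypes differed in 5 members, 4 lower and 1 higher, where 13.0% of all genes were called. At 6 weeks no member was a DEG, against a background of 1.72%, with 3 members at an unadjusted edgeR p under 0.05 and none called by DESeq2. From 6 to 22 weeks no member was called in WT (background 0.219%, 2 members at an unadjusted p under 0.05, none by DESeq2), and 1 fell in Ercc1Δ/− (background 4.65%, 2.43% lower). DR lowered 1 member in WT (background 1.28%, 0.939% lower) and none in Ercc1Δ/− (background 1.78%, none at an unadjusted p under 0.05 and none by DESeq2). Samples of the compared groups did not overlap for 4 members between the genotypes at 22 weeks on AL feeding (18.6% of all genes), for 3 on DR (8.27%) and for 2 with age in Ercc1Δ/− (6.78%). They overlapped for all 10 members between the genotypes at 6 weeks (2.87% of all genes did not), with age in WT (3.85%), and with DR in WT (5.14%) and Ercc1Δ/− (5.02%). In bulk tissue fewer cells of a type and less RNA per cell cannot be told apart, which holds for every difference given here.

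Depth and read quality differed between the genotypes at 22 weeks on both diets, beside every genotype difference given for that age. Total counts per sample, 921167 to 9616382 over the 28 samples, did not overlap on AL feeding (3903589 to 9616382 in WT and 1294980 to 3855444 in Ercc1Δ/−) or on DR (2660422 to 6124471 and 921167 to 2572523). On AL feeding mitochondrial genes took 2.47% to 3.72% of counts in WT and 5.37% to 5.96% in Ercc1Δ/−, and reads without a unique alignment were 3.66% to 4.46% and 5.19% to 5.74%, both without overlap. On DR reads assigned to no gene were 7.48% to 9.09% in WT and 9.34% to 10.1% in Ercc1Δ/−, again without overlap, while mitochondrial genes, at 2.88% to 5.12% and 4.04% to 9.22%, overlapped. Ambiguous reads were apart on both diets. They were 1.59% to 1.66% in WT and 1.73% to 1.82% in Ercc1Δ/− on AL feeding. On DR they were narrowly apart, at 1.593% to 1.65% in WT and 1.653% to 1.782% in Ercc1Δ/−. With every sample thinned to 921167 counts, Tgfb2 and Tgfb3 stayed called between the genotypes on both diets, Tgfbr3 and Smad7 stayed called on DR, and Smad6 did not. The part of read quality in the differences was not tested.

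**Figure D1:**
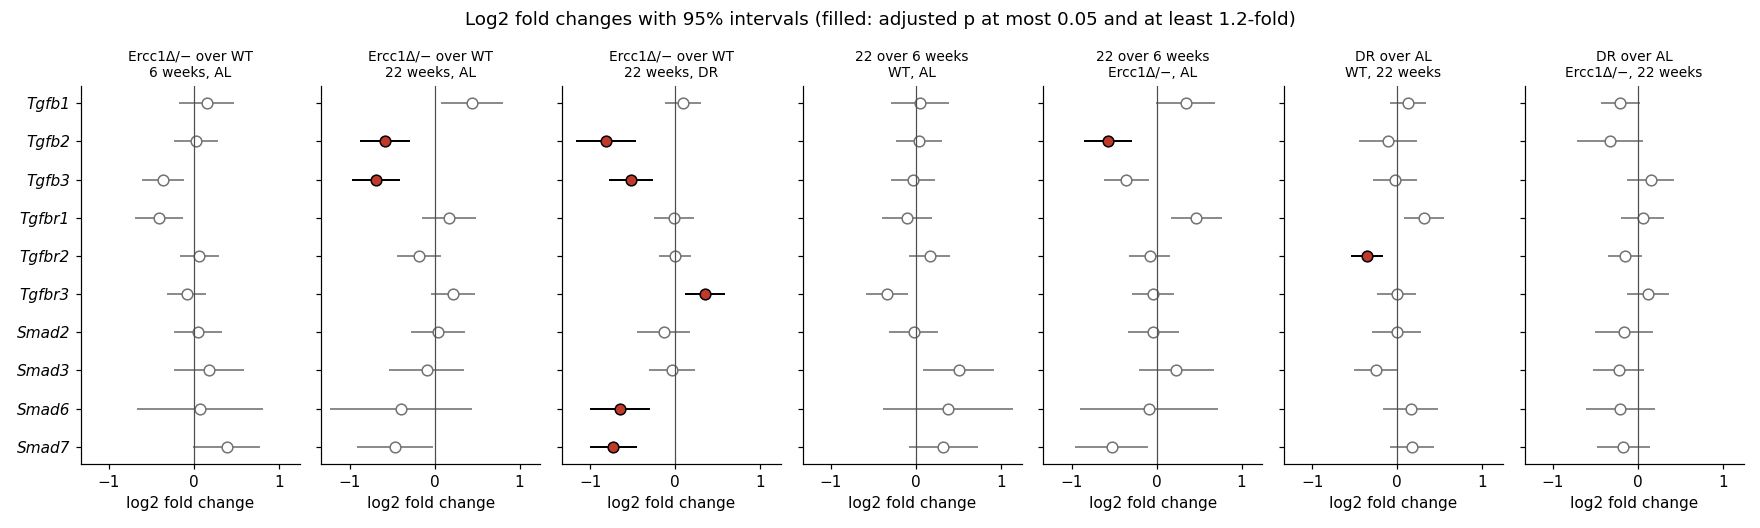
Log2 fold changes of the 10 members (rows) in 7 two-group comparisons (panels), with 95% intervals as horizontal lines; filled red circles are DEGs and open grey circles are not. The filled circles lie in the ligand rows Tgfb2 and Tgfb3 at 22 weeks on both diets, join Smad6, Smad7 and Tgfbr3 on DR, and otherwise appear once each for Tgfb2 with age in Ercc1Δ/− and for Tgfbr2 with DR in WT.

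At 22 weeks the ligand genes Tgfb2 and Tgfb3 were lower in Ercc1Δ/− aortas on both diets, and Tgfb1 was not called. TGF-β2 is the isoform whose loss gives mice heart and outflow tract defects. In AL-fed WT mice at 22 weeks the 4 samples held 385, 436, 534 and 599.7 normalized counts of Tgfb2, and in Ercc1Δ/− mice 259, 329.9, 357 and 368. Every Ercc1Δ/− sample lay below every WT sample, as was the case for 18.6% of all genes in 1 direction or the other. The log2 fold change was -0.58 ± 0.14 (SE; edgeR adjusted p = 0.00689), and a two-sided exact permutation test of the normalized counts gave p = 0.0286, the smallest that 4 against 4 samples allow. On DR the same gene held 357, 394, 468, 470.3 and 593 normalized counts in WT and 188, 248, 271, 285 and 295 in Ercc1Δ/−. The ranges again did not overlap, with 8.27% of all genes alike in this, and the log2 fold change was -0.81 ± 0.16 (edgeR adjusted p = 0.00221; exact permutation p = 0.00794, the smallest for 5 against 5).

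At 6 weeks the genotypes overlapped for Tgfb2. WT samples held 418 to 527 and Ercc1Δ/− samples 423 to 538 normalized counts, with a log2 fold change of 0.02 (95% interval -0.23 to 0.27). From 6 to 22 weeks Tgfb2 fell in AL-fed Ercc1Δ/− mice, by -0.57 ± 0.13 on the log2 scale (edgeR adjusted p = 0.0119), with no overlap between the ages, which held for 6.78% of all genes. The call was lost without the Ercc1Δ/− sample that held 259 normalized counts (adjusted p = 0.0753), with all samples thinned to the lowest total (adjusted p = 0.0929) and with males alone (adjusted p = 0.197). In WT the change with age was 0.03 (95% interval -0.23 to 0.30). The comparison of ages in Ercc1Δ/− and that of genotypes at 22 weeks share the same 4 Ercc1Δ/− samples. The difference between the age changes of the genotypes, tested as an interaction, was -0.61 ± 0.18 and was not called (edgeR adjusted p = 0.151; 0.785% of all genes called).

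Tgfb3 was lower as well. AL-fed WT mice at 22 weeks held 742, 795, 899.5 and 979 normalized counts and Ercc1Δ/− mice 456, 474, 530.0 and 633. All 4 mutant samples were below the WT range, with a log2 fold change of -0.69 ± 0.13 (edgeR adjusted p = 0.001005; exact permutation p = 0.0286). On DR, WT mice held 664, 774, 823, 888 and 1020.0 normalized counts and Ercc1Δ/− mice 434, 569.7, 626, 626 and 633. This gap was also free of overlap, at a log2 fold change of -0.52 ± 0.12 (edgeR adjusted p = 0.00425; exact permutation p = 0.00794). At 6 weeks Tgfb3 averaged 669 ± 87.5 (SD, n = 5) normalized counts in Ercc1Δ/− against 864 ± 129.5 (SD, n = 5) in WT, a log2 fold change of -0.36 ± 0.11 that missed the threshold (edgeR adjusted p = 0.122). The change with age was -0.36 ± 0.12 in Ercc1Δ/− (edgeR adjusted p = 0.107) and -0.03 ± 0.12 in WT (adjusted p = 0.981). Ttll5, on the opposite strand over 25.1% of the Tgfb3 locus, had 2295 counts in the 28 samples together. The kit keeps strand, and the strand setting of the counting is not given in the sources used here.

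In the AL-fed groups at 22 weeks WT had 1 female among its 4 mice and Ercc1Δ/− had 2, and with males alone the log2 fold changes were -0.32 for Tgfb2 (edgeR adjusted p = 0.319) and -0.53 for Tgfb3 (adjusted p = 0.143). Without the WT female, which held 599.7 normalized counts of Tgfb2, the Tgfb2 difference was -0.39 (adjusted p = 0.0867). On DR both genes remained called with males alone and without any 1 sample.

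Tgfb1, the isoform most tied to fibrosis and immune control, was not called in any comparison. In AL-fed mice at 22 weeks its normalized counts were 198, 201, 203 and 213 in WT and 243, 267, 285 and 301 in Ercc1Δ/−. All 4 mutant samples were above all WT samples, and the log2 fold change was 0.44 ± 0.17 (edgeR adjusted p = 0.0938; exact permutation p = 0.0286). A fit of only these 8 samples called it, at 0.45 (adjusted p = 0.00789). On DR the groups overlapped at 201 to 237 in WT and 201 to 273 in Ercc1Δ/−, and the log2 fold change was 0.09 (95% interval -0.11 to 0.29). At 6 weeks it was 0.15 (95% interval -0.17 to 0.46).

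**Figure D2:**
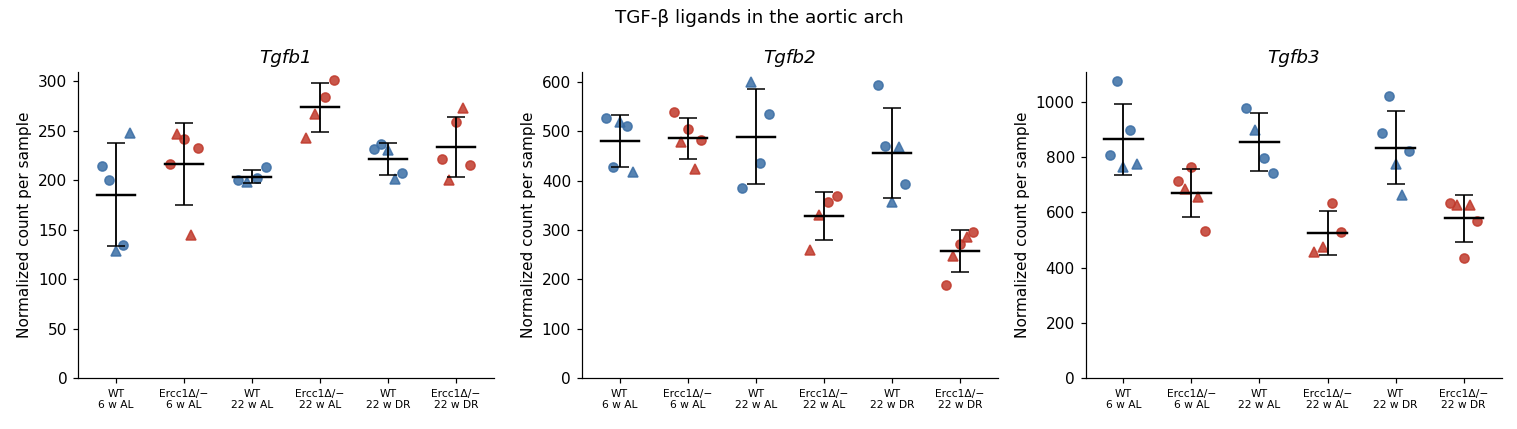
Normalized counts of Tgfb1, Tgfb2 and Tgfb3 (vertical axes, from 0) for each of the 28 samples in the 6 groups; blue is WT, red is Ercc1Δ/−, circles are males, triangles are females, and black bars give the group mean ± SD. At 22 weeks the red points lie below the blue for Tgfb2 and Tgfb3 on both diets, and above them for Tgfb1 on AL feeding only, between 243 and 301 against 198 to 213.

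Set against each other within a sample, the 3 ligand transcripts shifted in composition. Tgfb1 made up 14.3% ± 1.34 (SD, n = 4) of the ligand total per kb in AL-fed WT mice at 22 weeks and 26.2% ± 1.53 (SD, n = 4) in Ercc1Δ/−. On DR its share was 15.9% ± 1.42 in WT and 23.3% ± 3.45 in Ercc1Δ/− (SD, n = 5 each). The ranges of the genotypes did not overlap on either diet, with 12.7% to 15.6% against 23.9% to 27.0% on AL feeding and 14.7% to 18.1% against 19.8% to 28.7% on DR. At 6 weeks they did, at 13.1% ± 3.74 in WT and 17.1% ± 2.90 in Ercc1Δ/− (SD, n = 5 each). Tgfb3 remained the largest share in every group mean, from 48.5% in AL-fed Ercc1Δ/− mice at 22 weeks to 59.2% in WT at 6 weeks. With the longest coding transcript as the length, the Tgfb1 shares on AL feeding at 22 weeks were 23.7% in WT and 39.8% in Ercc1Δ/−. By that length Tgfb3 made up 40.4% in the same Ercc1Δ/− group, about level with Tgfb1. These shares were chosen for description and carry no test.

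Among the receptors no gene was called between the genotypes on AL feeding. For the signalling pair the log2 fold changes at 22 weeks on AL feeding were 0.16 for Tgfbr1 (95% interval -0.14 to 0.47) and -0.18 for Tgfbr2 (95% interval -0.43 to 0.06), and on DR they were -0.02 (95% interval -0.24 to 0.20) and -0.003 (95% interval -0.18 to 0.17). Tgfbr2, the receptor that binds ligand first, was lower on DR in WT. Its normalized counts were 800.4, 869, 1031 and 1122 in AL-fed WT mice and 709, 729, 730.1, 761 and 840.4 in those on DR. Only the highest DR sample and the lowest AL sample crossed, and the log2 fold change was -0.36 ± 0.09 (edgeR adjusted p = 0.0350; exact permutation p = 0.0317). This call was lost in 5 of 10 other settings and in 6 of 18 fits that left out 1 sample, among them those without either of the highest AL-fed samples, with adjusted p up to 0.406. In Ercc1Δ/− the same contrast gave -0.16 ± 0.09 (adjusted p = 0.438), and the difference between the diet effects was not called (adjusted p = 0.677; 0.105% of all genes called).

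Tgfbr1, the kinase that phosphorylates the SMADs, had the largest age difference of the receptors in Ercc1Δ/−, short of the threshold. Ercc1Δ/− mice at 6 weeks held 246, 326, 349, 383 and 399 normalized counts, the lowest group mean of the 6, and at 22 weeks on AL feeding 441, 469, 483 and 505. The ages did not overlap, but the log2 fold change of 0.47 ± 0.14 missed the threshold (edgeR adjusted p = 0.0545; exact permutation p = 0.0159, the smallest for 4 against 5), and DESeq2, the fit without sex and the fit of all 28 samples called it. WT samples ranged from 396 to 537 at 6 weeks and from 340.4 to 523 at 22 weeks, with a change of -0.11 ± 0.14 (adjusted p = 0.924). The interaction of genotype and age was 0.58 ± 0.20 (adjusted p = 0.225). At 6 weeks the genotypes differed by -0.41 ± 0.13 without being called (adjusted p = 0.133), and 1 mutant sample, at 399, reached above the lowest WT sample, at 396. The log2 ratio of Tgfbr1 to Tgfbr2 per kb averaged -1.002 in Ercc1Δ/− and -0.48 in WT at 6 weeks and -0.43 in AL-fed Ercc1Δ/− at 22 weeks. Ercc1Δ/− at 6 weeks, from -1.302 to -0.831, overlapped neither of the other groups. AL-fed WT at 22 weeks averaged -0.79 and, from -1.312 to -0.324, spanned the whole range of Ercc1Δ/− at 6 weeks. These ratios carry no test.

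Betaglycan, encoded by Tgfbr3, was the 1 member that was higher in Ercc1Δ/− by a call. On DR the normalized counts were 264, 275, 277, 311 and 332 in WT and 332, 346, 358, 388 and 429 in Ercc1Δ/−. The lowest mutant sample, at 331.5, met the highest WT sample, at 332.1, and the other samples were apart. The log2 fold change was 0.35 ± 0.11 (edgeR adjusted p = 0.0289; exact permutation p = 0.0159). The call was lost without the filter on low counts, with the 1 WT sample left out for its low depth added back, and in 5 of 18 fits without 1 sample, with adjusted p up to 0.156. On AL feeding the difference was 0.21 ± 0.12 (adjusted p = 0.273), and at 6 weeks -0.08 ± 0.11 (adjusted p = 0.819).

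**Figure D3:**
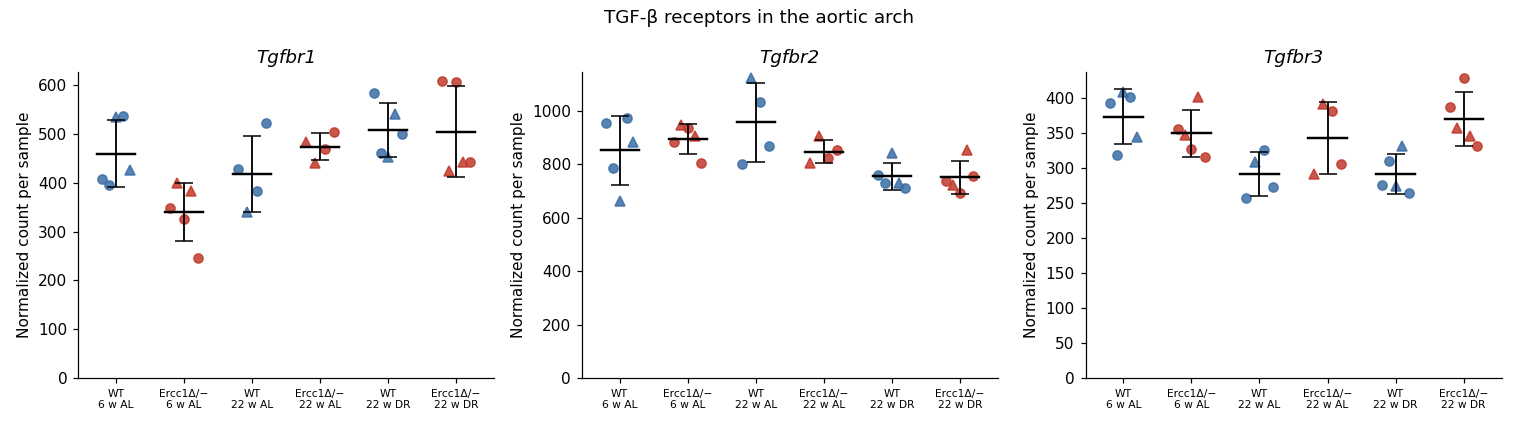
Normalized counts of Tgfbr1, Tgfbr2 and Tgfbr3 (vertical axes, from 0) in each sample of the 6 groups, with symbols and bars as for the ligands. Tgfbr1 is lowest in Ercc1Δ/− at 6 weeks, Tgfbr2 falls from 800.4 to 1122 in AL-fed WT to 709 to 840.4 on DR, and Tgfbr3 is higher in Ercc1Δ/− than in WT on DR with the groups touching at 332.

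The receptor-regulated SMADs, which carry the signal, were not called in any comparison. Smad2 had the narrowest group means of the 10 genes, from 116 normalized counts in DR-fed Ercc1Δ/− to 136 in Ercc1Δ/− at 6 weeks, with single samples between 91.5 and 167. Between the genotypes its log2 fold change was 0.05 at 6 weeks (95% interval -0.22 to 0.32), 0.04 at 22 weeks on AL feeding (95% interval -0.26 to 0.34) and -0.14 on DR (95% interval -0.44 to 0.16). All 3 intervals end above the Tgfb2 difference on AL feeding of -0.58. Smad3 ranged from 81.9 to 212 normalized counts over the samples, and both of these were Ercc1Δ/− mice at 6 weeks. Its genotype difference was -0.09 at 22 weeks on AL feeding (95% interval -0.53 to 0.34) and -0.04 on DR (95% interval -0.30 to 0.22). Between the ages in WT Smad3 averaged 117 ± 19.5 (SD, n = 5) and 167 ± 18.8 (SD, n = 4) normalized counts, a log2 fold change of 0.50 ± 0.19 that was not called (edgeR adjusted p = 0.423).

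The inhibitory SMADs were lower in Ercc1Δ/− on DR. Smad7, which the pathway itself induces and which blocks the type I receptor, held 192, 210.3, 239.5, 290.0 and 307 normalized counts in WT on DR and 109, 130, 154, 180 and 186 in Ercc1Δ/−. No mutant sample reached the WT range, and the log2 fold change was -0.73 ± 0.13 (edgeR adjusted p = 0.000344; exact permutation p = 0.00794). On AL feeding at 22 weeks the samples were likewise apart, with 204, 223, 236 and 240.4 in WT and 129, 173, 176 and 177 in Ercc1Δ/−. There the log2 fold change was -0.46 ± 0.21 and was not called (edgeR adjusted p = 0.162; exact permutation p = 0.0286), while a fit of only these 8 samples called it (adjusted p = 0.0310). At 6 weeks the estimate had the other sign, at 0.39 ± 0.18 (adjusted p = 0.383), with 109 to 268 normalized counts in WT and 160 to 317 in Ercc1Δ/−. The interaction of genotype and age was -0.85 ± 0.28, the largest of the 10 members, and was not called (edgeR adjusted p = 0.202).

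Smad6, the inhibitor that acts chiefly on the BMP branch, varied most between samples, from 53.6 to 210 normalized counts. On DR it held 126, 165, 166, 178 and 201 normalized counts in WT and 74.8, 94.1, 102, 111 and 149 in Ercc1Δ/−. Only the lowest WT and the highest mutant sample crossed, and the log2 fold change was -0.65 ± 0.17 (edgeR adjusted p = 0.009999; exact permutation p = 0.0159). The call was lost with all 28 samples in the fit, with every sample thinned to the lowest total and with males alone, with adjusted p up to 0.177. On AL feeding at 22 weeks WT samples held 112, 116, 193 and 210 normalized counts around the mutant range of 92.5 to 144, with a log2 fold change of -0.39 ± 0.38 (adjusted p = 0.567). Neither Smad6 nor Smad7 was called between the diets in either genotype, with log2 fold changes from -0.20 to 0.17, and the genotype by diet interactions were -0.36 ± 0.24 and -0.34 ± 0.19 (adjusted p = 0.71 and 0.627).

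**Figure D4:**
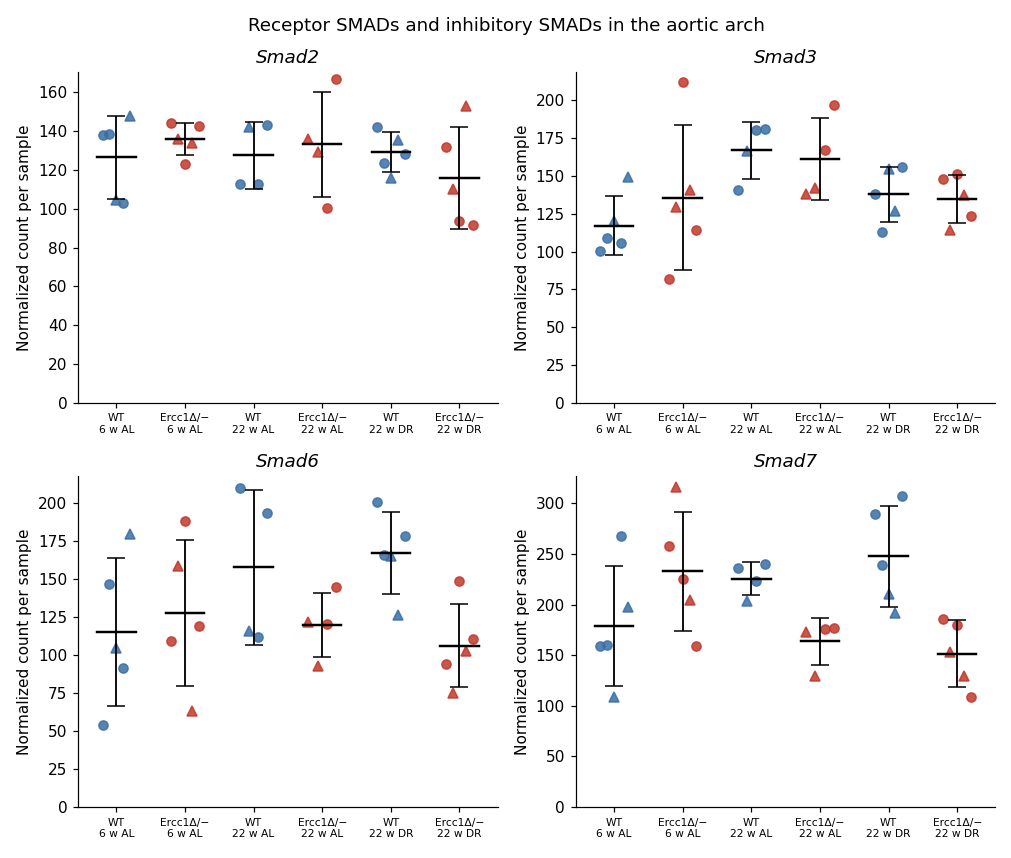
Normalized counts of Smad2, Smad3, Smad6 and Smad7 (vertical axes, from 0) in each sample of the 6 groups, with symbols and bars as for the ligands. On DR the red Ercc1Δ/− points of Smad7, at 109 to 186, lie below all blue WT points, at 192 to 307, and those of Smad6 lie mostly below, while Smad2 and Smad3 overlap in every pair of groups.

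No member was called between the diets in Ercc1Δ/−, and no interaction of genotype with age or diet was called for any of the 10 (3 and 1 of them at an unadjusted edgeR p under 0.05, none by DESeq2). The diet differences in Ercc1Δ/− ran from -0.33 for Tgfb2 to 0.15 for Tgfb3, with 95% intervals reaching from -0.70 to 0.42. No member was called between female and male mice, with log2 fold changes of females over males from -0.16 to 0.07 (background 0.186%, 0 at an unadjusted edgeR p under 0.05 and 0 by DESeq2). The median log2 fold change of the members at 22 weeks was -0.14 on AL feeding and -0.09 on DR, beside 0.03 and 0.003 over all genes tested.

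Around the members, 76 of 81 listed genes of the wider pathway were tested. At 22 weeks on AL feeding 4 were higher and 17 lower in Ercc1Δ/−, and on DR 2 were higher and 28 lower, beside 5.93% higher and 6.09% lower of all genes on AL feeding and 5.92% and 7.10% on DR. Among 8 genes of latency and matrix storage, the latent TGF-β binding proteins Ltbp1 (-0.58 ± 0.11, adjusted p = 0.0017) and Ltbp4 (-0.59 ± 0.12, adjusted p = 0.00205) and the fibrillin gene Fbn1 (-0.41 ± 0.13, adjusted p = 0.0390) were lower on AL feeding, on the log2 scale by edgeR. Ltbp2 (0.37 ± 0.11, adjusted p = 0.0244) and Nrros, which anchors latent ligand on macrophages and microglia (1.08 ± 0.32, adjusted p = 0.0303), were higher. Nrros rested on few reads, with 17.3 ± 5.20 normalized counts in AL-fed WT mice at 22 weeks (SD, n = 4). Of 8 genes of processing and activation, thrombospondin 1 (Thbs1), an activator of latent ligand, was higher, at 116 ± 19.8 against 39.5 ± 17.5 normalized counts (SD, n = 4 each; adjusted p = 0.0198), and none was lower.

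Of 8 modulators at the receptor, the matrix proteoglycan Fmod had 103 ± 63.0 normalized counts in Ercc1Δ/− against 484 ± 76.9 in WT (SD, n = 4 each; edgeR adjusted p = 0.00109), and Vasn, a ligand trap, was lower by -0.45 ± 0.13 (adjusted p = 0.0206). Endoglin (Eng), a co-receptor of endothelial cells, was higher by 0.46 ± 0.12 (adjusted p = 0.0158). With DR in Ercc1Δ/− Eng was lower by -0.41 ± 0.09 (adjusted p = 0.0165), a call lost with only the compared groups in the fit. Between the genotypes on DR it was 0.03 ± 0.08 apart (adjusted p = 0.889). The genotype by diet interaction of Eng was -0.41 ± 0.12 and was not called (edgeR adjusted p = 0.273). Its genotype difference on AL feeding and its diet difference share the same 4 AL-fed Ercc1Δ/− samples. Of 12 intracellular regulators none was called on AL feeding, and on DR 2 were, named here after their values were seen: Pmepa1, an induced inhibitor of SMAD signalling, and the ubiquitin ligase Smurf2, both lower. Smad4, the shared partner of the SMADs, differed by 0.07 ± 0.12 on AL feeding (adjusted p = 0.762) and -0.01 ± 0.11 on DR (adjusted p = 0.958).

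Of 16 genes that TGF-β is known to induce, 1 was higher (Ltbp2, which both lists hold) and 5 lower in Ercc1Δ/− on AL feeding at 22 weeks, among them Tgfbi (-0.74 ± 0.14, edgeR adjusted p = 0.0013), Col1a2 (-0.66 ± 0.14, adjusted p = 0.00249) and Postn (-0.38 ± 0.09, adjusted p = 0.0103), and 7 were lower on DR. Of 6 contractile genes of smooth muscle, 5 were lower on AL feeding, led by Cnn1 (-0.77 ± 0.12, adjusted p = 0.00021), Smtn (-0.93 ± 0.15, adjusted p = 0.00025) and Myh11 (-0.95 ± 0.17, adjusted p = 0.00075), and all 6 on DR. In the BMP and activin branch 2 of 21 were lower on AL feeding, the BMP signal carrier Smad1 (-0.60 ± 0.16, adjusted p = 0.0124) and the BMP receptor Bmpr1a (-0.34 ± 0.11, adjusted p = 0.0482), and 6 on DR. On AL feeding 7 of the 76 genes were called with males alone and 13 without the WT female, in place of 21. Shares of all genes called in these smaller fits are not given here, so a loss particular to the pathway genes cannot be read from the counts.

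**Figure D5:**
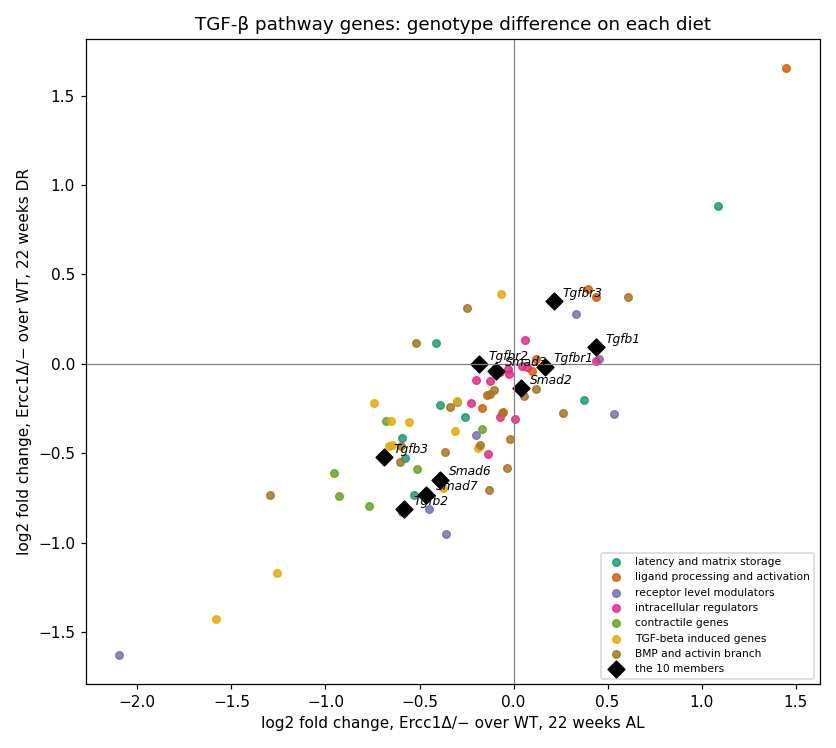
Log2 fold change of Ercc1Δ/− over WT at 22 weeks on AL feeding (horizontal axis) against that on DR (vertical axis) for the 10 members (black diamonds) and 76 other pathway genes (circles coloured by list; a gene in more than 1 list has the colour of the first). Tgfb2, Tgfb3, Smad6 and Smad7 lie in the lower left, with Tgfb2 at -0.58 and -0.81, and Tgfb1 and Tgfbr3 lie in the upper right; the 4 groups of mice behind the axes are separate.

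In the other comparisons fewer of the 76 genes were called. Genes named here were chosen after their values were seen, except those of the interactions. At 6 weeks 5 were lower in Ercc1Δ/− (Postn, Acta2, Mylk, Ccn2 and Cnn1), with 1.19% of all genes lower. From 6 to 22 weeks 2 fell in WT (0.138% of all genes), while in Ercc1Δ/− 10 fell and Bmp2 rose (2.43% and 2.22% of all genes). The interaction of genotype and age was called for the collagens Col3a1 (-1.26 ± 0.24, edgeR adjusted p = 0.0109) and Col1a2 (-0.86 ± 0.18, adjusted p = 0.0187), for Fbn1 (-0.79 ± 0.17, adjusted p = 0.0221) and for Ltbp2 (0.71 ± 0.14, adjusted p = 0.0145), with 0.413% of all genes called below and 0.372% above 0. DR lowered 4 in WT (Col1a1, Fbn1, Col3a1 and Col1a2) and 4 in Ercc1Δ/− (Eng, Vasn, Bgn and Id3), with 0.939% and 1.14% of all genes lower.

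Markers of the cell types in the vessel wall differed with genotype. Beside the counts of markers given here for 22 weeks, 5.93% of all genes were higher and 6.09% lower on AL feeding. On DR these shares were 5.92% and 7.1%. Smooth muscle markers had the highest sums of the 9 marker lists in every group. Several of them, among them Myh11, Cnn1 and Smtn, are also contractile genes given above, so those results and these are not separate. Summed normalized counts of 6 smooth muscle markers were 116700 to 140000 in WT and 61410 to 95200 in Ercc1Δ/− at 22 weeks on AL feeding, with 5 of 6 genes lower by a call, and 121000 to 157300 against 86040 to 92970 on DR, with 6 of 6 lower. Summed counts of 8 macrophage markers were 891 to 1319 in WT and 2062 to 3803 in Ercc1Δ/− on AL feeding, with 7 of 8 higher, and 537 to 1029 against 1322 to 4536 on DR, with 5 of 8 higher. Of 6 endothelial markers none was called on AL feeding and 3 were higher on DR (sums 1554 to 3317 in WT and 3043 to 5199 in Ercc1Δ/−). Of 5 tested cardiomyocyte markers Tnnt2 was higher on both diets, with sums of 328 to 803 against 617 to 1264 on AL feeding and 331 to 628 against 764 to 2071 on DR, where Nppa was at 0 in both groups. Of 6 fibroblast markers 1 was higher and 2 lower on AL feeding and 2 higher and 1 lower on DR, and Ptprc, the only lymphocyte list gene tested, was higher on both. Ptprc alone does not show whether lymphocytes differed. Of 5 tested Schwann and nerve markers 1 was higher on AL feeding and none on DR, and no fat or blood and platelet marker was called on either diet. In 1 WT sample of 6 weeks the nerve markers summed to 3639, against a group median of 133. At 6 weeks 2 of 6 smooth muscle markers were lower and 2 of 8 macrophage markers higher, where 1.72% of all genes were called and 1.19% were lower. The part of cell composition in the differences of the members was not tested.

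The genes whose log2 CPM (counts scaled to library size) ran most closely with a member over the 28 samples give a picture of which transcripts shared its pattern. Tgfb3 ran with the tropomyosin Tpm1 and with Tead3, each at r = 0.91, the closest match of any member. Tgfb2 ran with Arl6ip5 (r = 0.85) and the basement membrane collagen Col15a1 (r = 0.83), and Tgfb1 with Cldn3 (r = 0.85) and Rhoc (r = 0.83). Tgfbr1 ran with Ccn3 (r = 0.82) and the NADPH oxidase Nox4 (r = 0.78). Tgfbr2 ran with the circadian clock genes Nr1d1 and Dbp (both r = 0.75), and Tgfbr3 with Klf9 (r = 0.79) and Tsc22d3 (r = 0.78), both known as glucocorticoid-induced genes. Smad6 ran with Atoh8 (r = 0.84) and Zfp703 (r = 0.79), and Smad7 with Sgca (r = 0.72) and Msantd4 (r = 0.71). Smad2 ran with Hars1 and Or2t48 (both r = 0.71), and Smad3 with Tle2 (r = 0.68) and Arrb2 (r = 0.66). Between members the highest coefficient was that of Tgfb2 and Tgfb3 (r = 0.58) and the lowest that of Tgfbr3 and Smad6 (r = -0.69). These Pearson coefficients pool 6 groups that differ in genotype, age, diet and depth, and describe these samples only.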

How the data were processed

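Total RNA was isolated from the aortic arch of each mouse, and mRNA libraries were sequenced. The deposited values are raw read counts per gene, and per the labels and methods the authors demultiplexed with bcl2fastq 2.20, aligned with STAR 2.7.10a to GRCm39, removed duplicates by molecular identifier with UMI-tools 1.1.2 and counted genes with HTSeq 2.0.2; the strand setting is not given in the sources used here. The authors tested with DESeq2 1.34.0.

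As in the study, 1 of 29 samples (WT, 22 weeks, AL; 400410 counts) was left out. Totals of the other 28 were 921167 to 9616382, with 7.27% to 10.1% of reads assigned to no gene and kept out. The 12353 genes whose count exceeded 10 in over 10 samples were tested with edgeR 4.0.16 (R 4.3.3), TMM factors and group plus sex, in 1 fit of 18 AL-fed samples and 1 of 18 samples of 22 weeks. Normalized counts were scaled to the mean library size of 3683502. Exact two-sided permutation tests used scipy 1.17.1. Each p-value sets a difference against the variation between samples, which holds counting noise as well as the spread between mice. The code was tested on simulated data.

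The members and gene lists were chosen with earlier results of these data known. Besides the members, up to 3 genes per direction and pathway list with the smallest p on AL feeding at 22 weeks, list genes called in an interaction, the 2 genes most correlated with each member, and markers that moved with a group were named. Alternatives were DESeq2 1.42.0, other size factors, no filter, the left-out sample added, no sex term, other sample sets, an older quasi-likelihood method, thinning to 921167 counts, and each sample left out. Males alone were added after seeing the data.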

Additional observations from a re-analysis of the deposited data

Results flagged for a closer look

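In 1 of 60 sets of member values by group a single sample stood apart from the rest of its group. Smad7 was 129.2 normalized counts in 1 female AL-fed Ercc1Δ/− mouse of 22 weeks (sample 005), while the other 3 mice of the group held 173 to 177. By chance about 1 in 20 groups would show such a gap at this limit (Dixon's 95% critical value). Leaving out any 1 sample kept the genotype difference of Smad7 on AL feeding uncalled, with log2 fold changes from -0.52 to -0.37.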

How the results depend on the processing

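No paired analysis was possible because each mouse gave 1 sample and no sample number is shared between groups. Counts of called genes in this section stand without the shares of all genes called under the same settings. They show only how the counts moved with the setting, not a loss or gain particular to these genes. Across 100 pairs of member and comparison, 14 were called in at least 1 setting and none of these reversed; of the 86 never called, 30 changed sign in at least 1 setting, none with a size over 0.17. Between the genotypes on DR, Tgfb2, Tgfb3 and Smad7 were called in all 28 alternatives. Members called between the genotypes at 22 weeks on AL feeding numbered 4 with only the compared groups in the fit and 0 with males alone, in place of 2. For age in Ercc1Δ/− the 1 call became 2 without the sex term, with all 28 samples and by DESeq2, and 0 after thinning and with males alone. The 1 call for DR in WT became 0 without the sex term, with all 28 samples, with only the compared groups, after thinning and with males alone. By coding transcript, medians per kb were 98.8 for Tgfb1, 175.1 for Tgfb3 and 13.9 for Smad2.

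Of the wider pathway genes, 5 were called at 6 weeks, and 8 with all 28 samples, 2 with only the compared groups, 3 after thinning, 1 with males alone and 12 by DESeq2. On AL feeding at 22 weeks 7 were called with males alone, in place of 21. For age in WT the 2 calls became 1 without the filter and without the sex term, 5 with the left-out sample added and 6 by DESeq2. With males alone 7 were called for age in Ercc1Δ/− (11 before) and 0 for genotype by age (4 before). For DR in WT the 4 calls became 1 with the left-out sample, without the sex term and with males alone, 0 with all 28 samples and 7 by DESeq2. For DR in Ercc1Δ/− the 4 became 1 with the left-out sample and without the sex term, 2 with all 28 samples and 0 with only the compared groups. For genotype by diet 2 were called without the filter, in place of 0.

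Leaving out 1 sample at a time gave 0 members at 6 weeks, 1 to 3 between the genotypes on AL feeding and 4 to 5 on DR, 0 for age in WT and 0 to 3 in Ercc1Δ/−, 0 to 1 for DR in WT and 0 in Ercc1Δ/−, and 0 for both interactions. For the wider genes the ranges were, in that order, 1 to 8, 13 to 24, 26 to 32, 0 to 5, 6 to 13, 0 to 6 and 1 to 6, with 1 to 6 for genotype by age and 0 for genotype by diet. Tgfb1 on AL feeding was called without WT sample 024 of 6 weeks (adjusted p = 0.0361), Tgfbr1 for age in Ercc1Δ/− without WT sample 018 or 025 of 22 weeks (lowest adjusted p = 0.0402), and Tgfb3 and Smad7 for age in Ercc1Δ/− without Ercc1Δ/− sample 027 of 6 weeks (adjusted p = 0.0217 and 0.0372). For the interactions a fit of only the compared groups is the fit reported, and was not run again. The cause of these changes was not tested. Members had as few as 19 counts in a sample, and the parts of depth and of the spread between mice in the intervals were not separated.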
